A study of Mus musculus with 12 samples.

Results

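SVR tumors treated with trametinib alone were compared with SVR tumors treated with cediranib alone. Of the 12 tumors in the series, the 3 labelled trametinib and the 3 labelled cediranib were taken, and all 12897 genes that passed a filter on low counts were tested between them. SVR is a line of mouse endothelial cells transformed with an activated H-ras gene, and it grows as an angiosarcoma, a cancer of vessel-lining cells. The cells were implanted under the flank skin of nude mice. The labels give the strain as C57BL/6, and all tumors come from this single line. Trametinib was given at 1 mg/kg and cediranib at 3 mg/kg, each by daily gavage, and the 3 control tumors received the vehicle alone. The labels say that gavage went on until a tumor ulcerated or passed a size limit, and the study also ran an experiment that ended at a single time point. Which of them the sequenced tumors came from, and how long each was treated, is not stated. The 3 tumors that received both drugs are not compared here. They entered the low-count filter, the scaling and the shared fit with its estimate of spread.

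Trametinib blocks MEK, the kinase that activates ERK at the end of the RAS, RAF, MEK and ERK cascade. Active ERK induces a set of immediate early and feedback genes, among them the EGR and ETV transcription factors and the DUSP and SPRY inhibitors of the cascade, and their transcripts fall when MEK is blocked. Cediranib blocks the receptors for vascular endothelial growth factor (VEGF) on endothelial cells, and also KIT and the PDGF receptors. These receptors act upstream of RAS, whereas SVR cells carry an activated RAS of their own. The comparison asks how the transcripts of a RAS-transformed endothelial tumor differ between a block of MEK and a block of the VEGF receptors.

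The 6 libraries held 9478865 to 11666094 counts. Values below are CPM, counts scaled to library size with TMM factors, in the order tumor 1, 2 and 3 of each group, and a count of 3, the limit that a count of 0 allows, corresponds to 0.251 to 0.349 CPM. Nothing in the labels says that each tumor came from its own mouse, so p-values measure only the spread between these tumors. RNA came from whole tumor lysate, and tumor cells, stroma, muscle and skin are all of mouse origin and were counted together. Fewer cells of a type and less RNA per cell therefore cannot be told apart. Cediranib tumors 1 and 3 stood apart in skin transcripts. The summed level of 30 measured keratins was 5401, 113 and 3704 CPM in the cediranib tumors and 86.3, 67.5 and 57.0 CPM in the trametinib tumors. Trametinib tumor 2 stood apart in muscle transcripts, with 34292 CPM over 21 skeletal muscle genes against 351 and 2757 CPM in the other trametinib tumors. Calls were therefore made again in 2 skin checks, one without cediranib tumors 1 and 3 and one with an epidermal score, each tumor's mean log2 CPM over the epidermal genes, added to the fit. Called genes that lost their call in these checks are named with each group of genes below. The score was 3.00, -0.31 and 3.02 in the cediranib tumors, so the 2 checks are not independent. Both cost precision, as the first leaves 1 cediranib tumor, and a lost call alone does not mean a smaller difference. They are 2 of 16 alternative fits, which also changed tools, scaling, filters and libraries.

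In all, 450 genes were called between the trametinib and cediranib tumors, 3.49% of the genes tested. Calls required a false discovery rate (FDR) of 0.05 in edgeR's quasi-likelihood test and a log2 fold change of 1.5 or more in size. Of these, 196 (1.52%) were higher and 254 (1.97%) were lower with trametinib, and the median log2 fold change over all genes tested was -0.00. The 3 trametinib values lay wholly above the 3 cediranib values for 195 of the 196 higher genes and wholly below them for 227 of the 254 lower genes. Over all genes tested, 14.4% lay wholly above and 13.9% wholly below. A call rests on the same values, so the separation of called genes follows largely from the call and is no further evidence. Fold changes reached 7.30 upward and -12.27 downward on the log2 scale, with 51 genes above 3 and 108 genes below -3. Of the called genes 408 were protein coding.

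Each drug was also set against the vehicle controls, which both comparisons share. Trametinib against control called 310 genes, 2.4% of those tested (0.977% higher and 1.43% lower). Cediranib against control called 0 genes by edgeR's quasi-likelihood test, where the smallest FDR was 0.999 and 557 genes had an unadjusted p under 0.05, while DESeq2 called 9 and edgeR's likelihood ratio test 14. The 196 genes higher with trametinib than with cediranib had a median log2 difference from control of 1.88 in the trametinib tumors and of -0.41 in the cediranib tumors. The corresponding medians of the 254 lower genes were -2.25 and 0.29. Of the higher genes 102 were also called for trametinib against control, as were 141 of the lower genes. These genes were selected with the same trametinib and cediranib tumors. The medians and counts therefore lean this way by selection and give no independent support.

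**Figure D1:**
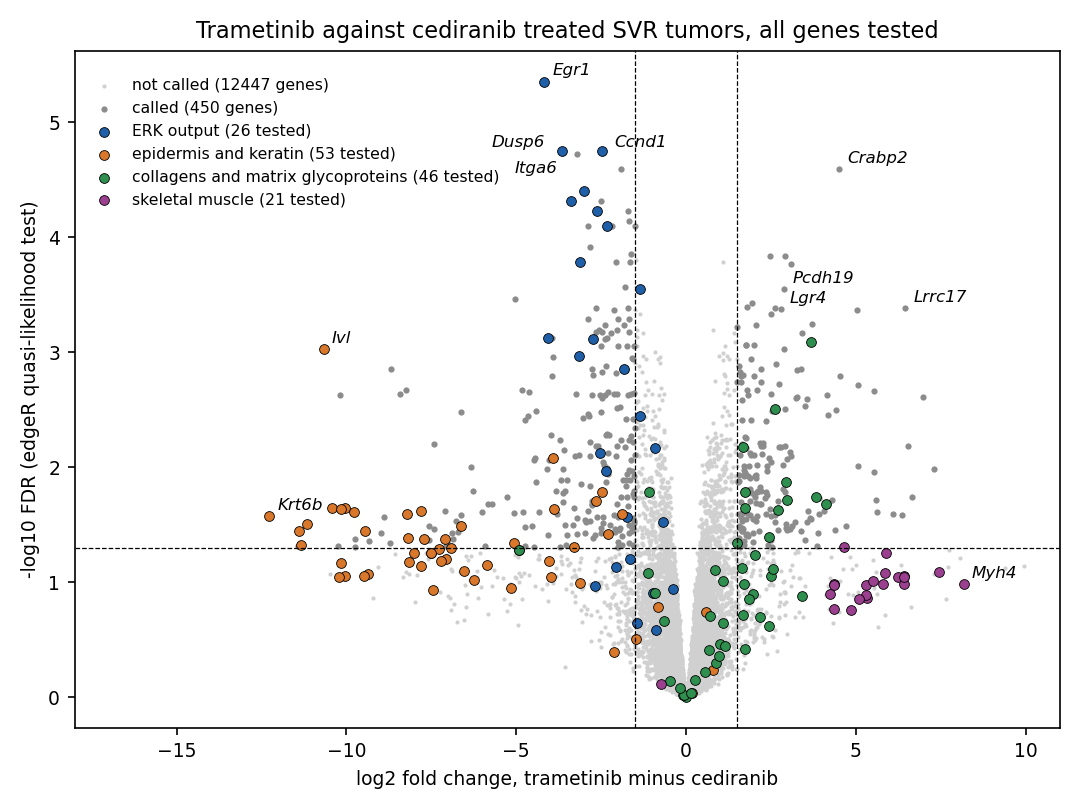
Each point is 1 of the 12897 genes tested, with the log2 fold change (trametinib minus cediranib) on the x axis and -log10 of the FDR on the y axis, and colors mark 4 groups of gene lists. The dashed lines stand at an FDR of 0.05 and at log2 fold changes of -1.5 and 1.5, and the ERK output genes, led by Egr1 with an FDR of 4.41e-06, sit at the top left, while epidermal and keratin genes reach further left at higher FDR.

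Genes that ERK induces were lower with trametinib than with cediranib. Of 28 genes on an ERK output list, 26 were tested, 15 were called lower and 0 higher, against 1.97% and 1.52% of all genes, the shares to which the counts of every list below compare. No member had an unadjusted p under 0.05 in the higher direction, and DESeq2 and the likelihood ratio test called 17 and 18 members. The median log2 fold change of the 26 genes was -2.35, and each estimate was below 0, from -4.18 to -0.38. In 25 of the 26 genes, the 3 trametinib tumors lay wholly below the 3 cediranib tumors. Against control the same list had a median of -2.30 with trametinib and of -0.08 with cediranib.

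Upstream sequences of ERK output genes are shown because these genes fell together. ETS proteins, AP-1 and the serum response factor, which binds the CArG box, are known nuclear endpoints of ERK signaling. RefSeq sequences (GRCm38.p6) were read for 7 of the 15 called genes, Dusp6, Etv5, Hmga2, Dusp5, Egr2, Spred3 and Plaur. The following motifs were searched on both strands in the 250 bases before each gene start, namely the ETS motif CCGGAAGT, the AP-1 motif TGANTCA and the CArG box. The first 3 sequences below belong to the members with the smallest p among those read, and the last 2 were chosen after their matches had been seen. Capitals mark motif matches, and the letters run 5′ to 3′. For Etv5 and Dusp5 only the part before the outermost annotated start is printed.
Dusp6, chr10:99262981-99263230, plus strand: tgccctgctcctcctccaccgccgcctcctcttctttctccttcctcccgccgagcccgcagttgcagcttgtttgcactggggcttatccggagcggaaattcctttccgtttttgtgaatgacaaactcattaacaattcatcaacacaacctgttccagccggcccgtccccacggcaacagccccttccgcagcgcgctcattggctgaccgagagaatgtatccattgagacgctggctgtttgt
Etv5, chr16:22439720-22439820, minus strand: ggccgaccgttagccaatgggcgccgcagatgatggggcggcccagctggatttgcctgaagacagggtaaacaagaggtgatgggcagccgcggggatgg
Hmga2, chr10:120476470-120476719, minus strand: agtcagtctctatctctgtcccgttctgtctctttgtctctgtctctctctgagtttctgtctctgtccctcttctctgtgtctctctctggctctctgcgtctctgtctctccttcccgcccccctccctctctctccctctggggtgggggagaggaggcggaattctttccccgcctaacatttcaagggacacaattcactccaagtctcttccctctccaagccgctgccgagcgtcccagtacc
Dusp5, chr19:53528895-53529108, plus strand: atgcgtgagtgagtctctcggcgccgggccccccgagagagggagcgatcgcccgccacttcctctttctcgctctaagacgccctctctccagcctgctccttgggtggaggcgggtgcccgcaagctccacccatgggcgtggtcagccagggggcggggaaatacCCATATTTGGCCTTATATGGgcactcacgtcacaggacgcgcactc
Plaur, chr7:24462233-24462482, plus strand: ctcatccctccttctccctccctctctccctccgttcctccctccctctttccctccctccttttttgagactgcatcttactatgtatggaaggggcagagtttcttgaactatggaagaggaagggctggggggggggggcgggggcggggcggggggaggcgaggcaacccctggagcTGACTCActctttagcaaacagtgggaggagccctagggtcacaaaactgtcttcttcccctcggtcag
Dusp5 held 2 CArG boxes side by side, the first beginning 82 bases before the RefSeq start, and Plaur held 1 AP-1 motif, 69 bases before it. No ETS match stood in any of the 7 windows. Of 32851 windows of 250 bases before RefSeq gene starts, 1.47% held a CArG box, 6.75% an AP-1 motif and 2.88% the ETS motif. A match describes these letters and is no measured binding site, and the absence of a match says nothing of the factor.

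Egr1, the immediate early zinc finger transcription factor, had 3.18, 3.26 and 5.11 CPM in the trametinib tumors and 57.3, 80.7 and 73.0 CPM in the cediranib tumors. The groups were far apart, and the mean fell from 70.3 ± 11.9 to 3.85 ± 1.09 CPM (SD, n = 3 each). The log2 fold change was -4.18 ± 0.23 (SE), with an FDR of 4.41e-06, the smallest of all genes. Egr2 and Egr3, its relatives, were also lower, by log2 fold changes of -3.15 and -2.52 (FDR 0.00109 and 0.00752). Of the 15 called members Egr3, Spred3, Fosl1 and Plaur lost their calls in both skin checks, and the other 11 kept them in both.

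The phosphatases and adaptors that dampen the cascade followed. Dusp6, the cytoplasmic phosphatase of ERK (GRCm38 10:99263231-99267488, plus strand), had 4.54, 1.98 and 3.60 CPM with trametinib and 41.4, 43.6 and 43.1 CPM with cediranib. Its cediranib values were nearly equal and close to the control mean of 44.4 CPM, and its log2 fold change was -3.64 ± 0.24 (FDR 1.78e-05). Dusp4, a nuclear phosphatase of the same family, had 2.91, 0.349 and 2.51 CPM against 32.9, 37.7 and 29.8 CPM (log2 fold change -4.07 ± 0.51, FDR 0.000751). Dusp5, which holds ERK in the nucleus and whose upstream sequence carries the paired CArG boxes, had 7.90, 4.77 and 6.95 CPM against 41.9, 54.4 and 77.6 CPM (log2 fold change -3.14 ± 0.31, FDR 0.000165). Spry4, an inhibitor of receptor signaling to RAS, was low throughout, at 0.635, 0.466 and 1.00 CPM against 5.30, 4.63 and 4.78 CPM (log2 fold change -2.75 ± 0.35, FDR 0.000764). Spred3 was called too (-1.83, FDR 0.0014), while its relative Spred1 passed the FDR but not the size threshold (-1.36, FDR 0.000282), and Spry2 and Spred2 passed neither (-0.97 and -0.38, FDR 0.125 and 0.116). Dusp4 and Dusp5 were outside the rule for named genes and were chosen after their values were seen, as were, here and below, further list members given in passing.

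The PEA3 factors Etv4 and Etv5, ETS proteins induced by growth factors, had trametinib values below every cediranib value. Etv4 had 8.26, 14.7 and 12 CPM against 92.4, 71.8 and 116 CPM (log2 fold change -3.01 ± 0.23, FDR 3.97e-05). Etv5 had 7.63, 3.84 and 5.53 CPM against 56.4, 79.6 and 44.7 CPM (-3.40 ± 0.27, FDR 4.82e-05). Their relative Etv1 was more variable between tumors and was not called (-2.07 ± 0.66, FDR 0.0741).

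Ccnd1, the D-type cyclin that links growth signals to entry into the cell cycle, had 22.1, 22.1 and 16.4 CPM with trametinib and 123, 94.8 and 118 CPM with cediranib. The mean was 20.2 ± 3.28 against 112 ± 14.9 CPM (SD, n = 3 each), with a log2 fold change of -2.47 ± 0.16 and an FDR of 1.78e-05, and the annotation has LTO1 on its opposite strand. Hmga2, a chromatin protein of embryonic and transformed cells, had 104, 74.1 and 61.2 CPM against 573, 392 and 507 CPM (-2.62 ± 0.22, FDR 5.90e-05) and overlaps the antisense gene 1700006J14Rik. Phlda1, a growth factor response gene, had 13.8, 7.56 and 10.5 CPM against 46.4, 57.1 and 57.3 CPM (-2.33 ± 0.20, FDR 7.94e-05). Whether the counting used strand is not given, so reads of such overlapping pairs cannot be told apart. Plaur, the urokinase receptor, was lower at a low level, with 0.999, 0.931 and 0.419 CPM against 4.30, 4.35 and 3.44 CPM (-2.37 ± 0.48, FDR 0.0108). Myc had 21.8, 15 and 17.6 CPM against 32.1, 31.4 and 39.3 CPM, without overlap, but its log2 fold change of -0.92 ± 0.17 (FDR 0.00684) was below the size required for a call. Fos itself was lower in estimate only (-0.89 ± 0.46, FDR 0.263), and Fosl1, another AP-1 member, was called (-1.75, FDR 0.027).

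**Figure D2:**
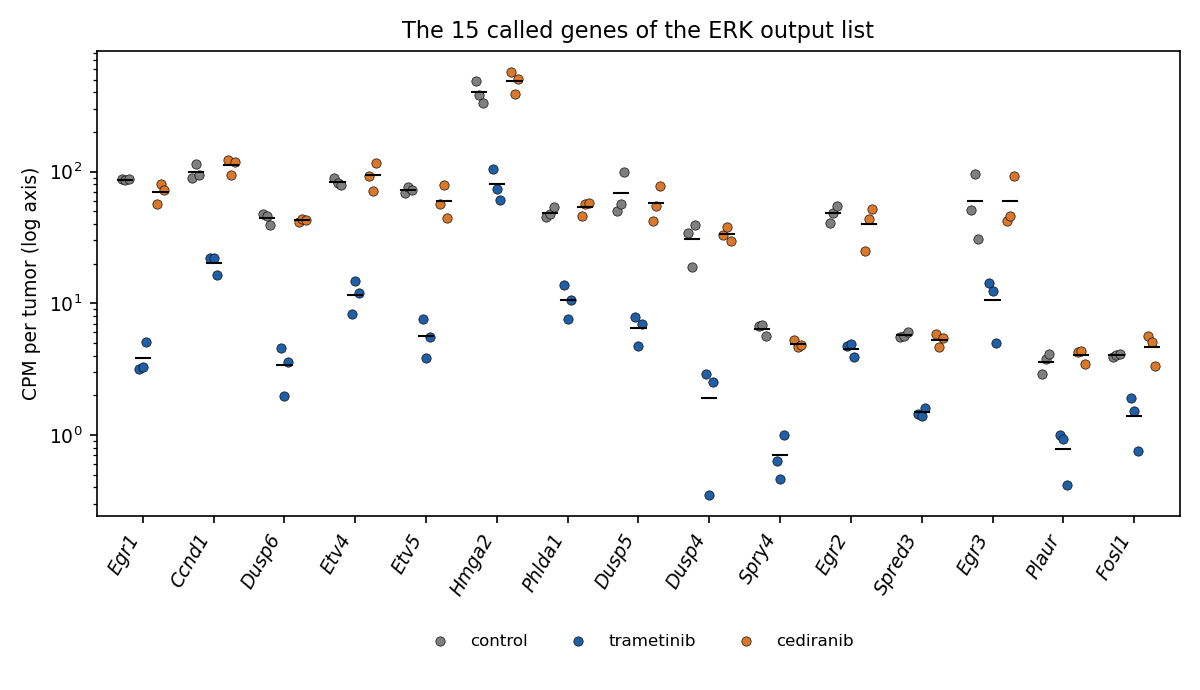
CPM in each tumor (log y axis) of the 15 ERK output genes called lower, ordered by p, with control, trametinib and cediranib tumors as points and the group means as bars. The trametinib points lie below all cediranib points in each of the 15 genes, and the control points lie near the cediranib points.

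The genes of the cascade itself showed no such shift. Of 18 genes from RAS to ERK, all tested, 0 were called by edgeR's quasi-likelihood test, DESeq2 or the likelihood ratio test. At an unadjusted p under 0.05, 2 were higher and 4 were lower, against 12.4% and 12.3% of all genes, and the median log2 fold change was -0.03. Map2k1 and Map2k2, which encode both MEK kinases, had log2 fold changes of -0.11 ± 0.20 and 0.35 ± 0.13 (FDR 0.782 and 0.124). Mapk3, which encodes the kinase ERK1, had 0.20 ± 0.14 (FDR 0.413). Hras, whose activated form transformed this line, had 787, 538 and 733 CPM with trametinib and 1213, 700 and 961 CPM with cediranib, with overlapping groups (-0.48 ± 0.20, FDR 0.156), and the mouse gene and the introduced copy were not distinguished. Ksr1, a scaffold of the cascade, passed the FDR without reaching the size threshold (0.91, FDR 0.0157), and so did Rasa1, a RAS inactivator (-0.64, FDR 0.035).

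Among the VEGF ligands and receptors, Vegfd was the only called gene. Of 12 genes of the VEGF axis 11 were tested, 1 was higher and 0 were lower, where DESeq2 and the likelihood ratio test called 1 each. At an unadjusted p under 0.05, 3 genes were lower and 2 higher. Vegfd, a ligand of the lymphatic VEGF receptor (X:164373378-164402650), had 6.08, 4.19 and 5.27 CPM with trametinib and 0.500, 0.378 and 0.574 CPM with cediranib. The groups were well separated (log2 fold change 3.39 ± 0.47, FDR 0.0014), and the control mean of 1.19 CPM lay between them, with differences from control of 2.14 for trametinib and -1.25 for cediranib. Its call was lost in both skin checks, so that 0 genes of the axis were called with the epidermal score. Its log2 fold change nevertheless ran from 2.84 to 3.74 over all 16 alternatives. Vegfa, the main ligand, had 400, 223 and 233 CPM against 215, 417 and 337 CPM, with overlapping groups (-0.18 ± 0.31, FDR 0.787).

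The receptors had lower estimates with trametinib. Kdr, the main VEGF receptor, had 1.54, 4.07 and 2.85 CPM with trametinib and 5.70, 11.7 and 3.64 CPM with cediranib, with trametinib tumor 2 above cediranib tumor 3 (-1.33 ± 0.55, FDR 0.161). Flt1, a decoy-like VEGF receptor, did not overlap between groups, at 6.99, 4.42 and 5.19 CPM against 11, 17.5 and 13.9 CPM, and its log2 fold change of -1.35 ± 0.35 (FDR 0.0333) missed the size threshold. Flt4, the lymphatic receptor, had -0.87 ± 0.64 (FDR 0.451). Kit had 2.09, 0.349 and 0.251 CPM against 1.6, 6.05 and 1.44 CPM, with overlap (-1.73 ± 0.93, FDR 0.282). Pdgfrb had 0.33 ± 0.43 (FDR 0.699). Of the 9 tested genes of the PDGF and KIT axis 1 was called, the ligand Pdgfa, with 2.00, 3.61 and 1.59 CPM against 6.19, 8.51 and 9 CPM (-1.74 ± 0.35, FDR 0.0115), and its FDR was 0.05 without trametinib tumor 3, just past the limit. Pdgfa also lost its call in both skin checks, while its log2 fold change ran from -2.13 to -1.51 over all 16 alternatives.

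Endothelial genes leaned toward lower values with trametinib. Of 15 tested members of a list of endothelial markers, 3 were called lower and 0 higher, 12 had estimates below 0, and the median was -0.87. At an unadjusted p under 0.05 there were 6 lower and 0 higher members, and DESeq2 and the likelihood ratio test called 3 and 4. The summed level of the list was 262 to 337 CPM with trametinib and 369 to 660 CPM with cediranib, without overlap, and an exact two-sided permutation test gave p = 0.1, the smallest that 3 against 3 tumors allow. Defining endothelial markers were present at modest levels, with Pecam1 at most 5.01 CPM, Kdr at most 11.7 CPM and Cdh5 from 9.88 to 79.6 CPM in these 6 tumors.

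Pecam1, the adhesion molecule CD31 of endothelial junctions (11:106654217-106750628), had 1.18, 0.466 and 0.586 CPM with trametinib and 3.90, 5.01 and 2.39 CPM with cediranib. All trametinib values were below all cediranib values (-2.31 ± 0.47, FDR 0.0115), and without trametinib tumor 3 the FDR was 0.0504. Tie1, an endothelial receptor kinase, had 29.4, 60.9 and 17.4 CPM against 190, 159 and 60.7 CPM, so that trametinib tumor 2 and cediranib tumor 3 met (-1.93 ± 0.50, FDR 0.0337), and the call was lost without trametinib tumor 1 or 3 or cediranib tumor 1 or 2. Sox7, a transcription factor of developing vessels, had 3.99, 2.91 and 2.34 CPM against 9.79, 8.80 and 9.86 CPM (-1.62 ± 0.28, FDR 0.00534). Notch4, the endothelial Notch receptor, had 9.80, 10.2 and 7.62 CPM against 43.7, 26.6 and 24 CPM (-1.77 ± 0.25, FDR 0.00143). The estimates of Sox7 without trametinib tumor 3 and of Notch4 without cediranib tumor 1 fell under the size threshold. Cdh5, the cadherin of endothelial junctions, did not overlap but was not called (-1.51 ± 0.51, FDR 0.0908). With the epidermal score edgeR called 0 of the endothelial markers, and leaving out single tumors gave 0 to 3. Pecam1, Sox7 and Tie1 lost their calls in both skin checks. Over all 16 alternatives their log2 fold changes ran from -2.80 to -2.04, -1.85 to -1.45 and -2.54 to -1.60.

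Among 13 tested genes of sprouting vessels, 2 were called lower, Tie1 and Notch4, and 1 higher. The higher gene was Rgcc, a cell cycle regulator also known from vessels, with 3.00, 8.61 and 6.78 CPM against 0.3, 1.70 and 0.383 CPM (2.91 ± 0.64, FDR 0.0166), and its call was lost without trametinib tumor 2 or cediranib tumor 1 or 3. Rgcc and Tie1 lost their calls in both skin checks, and Notch4 with the epidermal score. Apln, the peptide apelin of endothelial tip cells, was lower without overlap, at 1.91, 1.75 and 1.67 CPM against 3.90, 4.63 and 4.11 CPM, but by less than the size threshold (-1.24 ± 0.32, FDR 0.033). The tip cell marker Esm1 did not pass the low-count filter.

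Apart from Ccnd1, the S phase and mitosis genes held no calls. Of 28 tested S phase genes and 28 tested mitosis genes edgeR's quasi-likelihood test, DESeq2 and the likelihood ratio test called 0. At an unadjusted p under 0.05, 4 S phase and 6 mitosis genes were higher with trametinib and 0 were lower, against 12.4% and 12.3% of all genes. The medians were 0.13 and 0.26 on the log2 scale, and 24 of the 28 mitosis estimates were above 0. In 13 of the 28 mitosis genes the trametinib tumors lay wholly above the cediranib tumors and in 0 wholly below, against 14.4% and 13.9% of all genes, and 3 passed the FDR, all higher. The largest estimate was that of Ube2c, which marks proteins for destruction in mitosis, with 88.6, 224 and 126 CPM against 54.6, 67.0 and 54.2 CPM (1.32 ± 0.37, FDR 0.0448). Mki67, the proliferation marker, had 34.8, 38.4 and 21.3 CPM with trametinib and 34.4, 31.6 and 27.0 CPM with cediranib (0.02 ± 0.26, FDR 0.976). Mcm5, a subunit of the replicative helicase, had 0.26 ± 0.12 (FDR 0.21). Prc1, a protein of the dividing cell's midzone, passed the FDR at a small size, with 104, 91.5 and 90.7 CPM against 48.5, 52.9 and 69.3 CPM (0.75 ± 0.16, FDR 0.0153). Cdk6 and Cdkn1b, a partner kinase and an inhibitor of the D cyclins, passed the FDR in opposite directions, with -0.94 ± 0.23 (FDR 0.0277) and 1.09 ± 0.25 (FDR 0.0197).

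Genes of ribosome biogenesis had lower estimates in 23 of 24 cases, by small amounts. Of 24 genes, all tested, edgeR's quasi-likelihood test, DESeq2 and the likelihood ratio test called 0 at the size threshold, but 18 had an unadjusted p under 0.05 in the lower direction against 12.3% of all genes, and 9 passed the FDR. The median was -0.68, and 19 of the 24 genes did not overlap between groups, all lower with trametinib, against 13.9% of all genes. Polr1b, a subunit of RNA polymerase I, had 6.90, 6.63 and 6.45 CPM against 18.5, 12.6 and 17.9 CPM (-1.29 ± 0.18, FDR 0.00148). Mybbp1a, a nucleolar protein, had 24.1, 22.7 and 21 CPM against 47.1, 46.2 and 38.5 CPM (-0.96 ± 0.14, FDR 0.00179), and Nop56, a core protein of the RNA-modifying snoRNPs, had 112, 116 and 106 CPM against 175, 179 and 170 CPM (-0.65 ± 0.10, FDR 0.00231).

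Survival genes of the BCL2 family included 2 that were lower. Of 13 tested members, 2 were called lower and 0 higher, against 1.97% and 1.52% of all genes. Bcl2, which restrains the mitochondrial path to cell death (1:106538178-106714274), had 3.27, 1.98 and 1.76 CPM with trametinib and 14.2, 11.9 and 15.7 CPM with cediranib. The means were 2.33 ± 0.82 and 13.9 ± 1.90 CPM (SD, n = 3 each), and the log2 fold change was -2.57 ± 0.31 (FDR 0.000646). Bcl2l1, which encodes BCL-XL, had 17.5, 17.9 and 20 CPM against 73.9, 46.4 and 50.3 CPM (-1.62 ± 0.25, FDR 0.00233), and its estimate fell under the size threshold without cediranib tumor 1. Bcl2 kept its call in both skin checks and Bcl2l1 in neither. Mcl1, the third major survival member, had -0.20 ± 0.10 (FDR 0.26), and Bcl2l11, which encodes the cell death factor BIM, had 5.90, 10.4 and 6.36 CPM against 4.10, 4.92 and 5.55 CPM (0.63 ± 0.32, FDR 0.261).

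Genes of adhesion and signaling outside the ERK list were also among the lower genes with the smallest p. Itga6, the laminin-binding integrin subunit (2:71745616-71856771), had 31.4, 29.6 and 20.4 CPM with trametinib and 301, 226 and 221 CPM with cediranib. The lowest cediranib tumor was far above the highest trametinib tumor (-3.20 ± 0.22, FDR 1.89e-05). Of 25 tested integrins and laminins, 2 were lower and 2 higher, and the other lower gene was Lamb3, a laminin chain of skin basement membrane, at 0.0908, 0.116 and 0 CPM against 2.40, 1.04 and 1.63 CPM, with 2 against 52 counts in all. Lamb1 and Lama5, chains of vessel basement membrane, were lower at the FDR but under the size threshold (-1.48 and -1.28, FDR 0.000158 and 0.00629). The higher integrins were Itga7 and Itga10, a laminin and a collagen receptor, with 2.38 ± 0.48 and 2.14 ± 0.56 (FDR 0.0108 and 0.0361). Itga7 lost its call without cediranib tumor 1, and Itga10 lost it in 5 of the 6 fits without 1 tumor, the exception being cediranib tumor 1. Itga6 kept its call in both skin checks, and Lamb3, Itga7 and Itga10 lost theirs in both. Over the alternatives with a value their log2 fold changes ran from -4.93 to -3.68, 2.24 to 2.82 and 1.75 to 2.66.

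Rhbdf2, which guides the protease that releases EGFR ligands to the cell surface, had 12.6, 12.5 and 10.0 CPM with trametinib and 45.1, 46.7 and 39.6 CPM with cediranib (-1.90 ± 0.14, FDR 2.55e-05). Lyn, a SRC family kinase, had 32.7, 24.6 and 32.0 CPM against 108, 88.3 and 99.1 CPM (-1.72 ± 0.14, FDR 5.90e-05). Arap3, a regulator of small GTPases, had 47.5, 32.7 and 44.8 CPM against 141, 133 and 127 CPM (-1.68 ± 0.14, FDR 7.24e-05). All 3 genes were tight within groups. Add2, a protein of the membrane skeleton, had 37.7, 29.9 and 33.5 CPM against 182, 125 and 156 CPM (-2.19 ± 0.20, FDR 7.94e-05) and overlaps the predicted gene Gm44089 on the other strand.

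Of 28 tested semaphorin, plexin and guidance genes 3 were lower and 4 higher, against 1.97% and 1.52% of all genes. Leaving out single tumors gave 3 to 5 calls in this list. In both skin checks Sema6d was the 1 gene of the 7 that kept its call. Sema6d and Plxna4, a membrane semaphorin and a plexin receptor, were lower. Sema6d had 16.3, 18.3 and 14.1 CPM against 121, 95.2 and 90.2 CPM (-2.66 ± 0.33, FDR 0.000666), and Plxna4 had -2.43 ± 0.48 (FDR 0.00963). Sema3a, a secreted semaphorin, was higher, with 47.8, 36.3 and 31.9 CPM against 12.1, 14.6 and 10.5 CPM (1.64 ± 0.27, FDR 0.00392), as was the guidance protein Ntn1 (2.20 ± 0.48, FDR 0.0161). Sema3a fell under the size threshold without trametinib tumor 1, and Ntn1 lost its call without trametinib tumor 3 or cediranib tumor 1 or 3. Among 24 receptor tyrosine kinases 1 was called, near the share of 3.49% over all genes. This was Ntrk3, the neurotrophin-3 receptor, with 0.726, 0 and 0.670 CPM against 21.7, 18 and 110 CPM (-6.62 ± 1.07, FDR 0.0033). Of 7 tested chemokines and cytokines Il1b, a macrophage cytokine, was called lower, at 0.545, 0.233 and 0.251 CPM against 2.20, 2.08 and 3.44 CPM (-2.85 ± 0.47, FDR 0.00357). Il1b lost its call in both skin checks, and Ntrk3 with the epidermal score.

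The genes higher with trametinib were led by Crabp2, which carries retinoic acid to its nuclear receptor (3:87948666-87953376). It had 48.4, 53.1 and 68.1 CPM with trametinib and 2.40, 1.89 and 3.16 CPM with cediranib, and the control mean was 1.57 CPM. The means were 56.5 ± 10.3 and 2.48 ± 0.64 CPM (SD, n = 3 each), with a log2 fold change of 4.50 ± 0.33 and an FDR of 2.55e-05. Pcdh19, a protocadherin (X:133582860-133688987), had the most counts of the 11 genes plotted, with 589, 503 and 418 CPM against 45.5, 48.2 and 111 CPM (2.88 ± 0.30, FDR 0.000281). The groups did not overlap in Crabp2 or Pcdh19, and cediranib tumor 3 was the highest of its group for Pcdh19.

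Gas7, a growth arrest gene, had 168, 121 and 192 CPM with trametinib and 29.8, 34.5 and 22.6 CPM with cediranib (2.47 ± 0.24, FDR 0.000146). Tbx2, a developmental T-box repressor, had 17.7, 31.8 and 15.7 CPM against 2.20, 2.84 and 2.58 CPM (3.09 ± 0.31, FDR 0.000171). Lrrc17, a secreted leucine-rich repeat protein, was near the detection limit with cediranib, at 0.200, 0.189 and 0.0957 CPM, and reached 9.08, 25.5 and 11.1 CPM with trametinib (6.45 ± 0.72, FDR 0.000413). In each of these the lowest trametinib value was several times the highest cediranib value. Htra1, a secreted serine protease, was higher by 1.78 ± 0.20 (FDR 0.000407), Mtss1l, an actin regulator, by 2.61 ± 0.29 (FDR 0.000413), Sertad4 by 5.03 ± 0.57 (FDR 0.000429) and Ldlrad3 by 2.49 ± 0.29 (FDR 0.000462). Larger but less certain differences belonged to Mn1, a transcriptional coregulator (5.54 ± 0.84, FDR 0.00217), Limch1, an activator of myosin (5.07 ± 1.00, FDR 0.00972) and Tnr, a glycoprotein of the neural matrix (5.06 ± 0.75, FDR 0.00193). Mn1, Limch1 and Tnr lost their calls in both skin checks. Over all 16 alternatives their log2 fold changes ran from 5.00 to 5.86, 3.51 to 5.41 and 4.57 to 6.58.

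**Figure D3:**
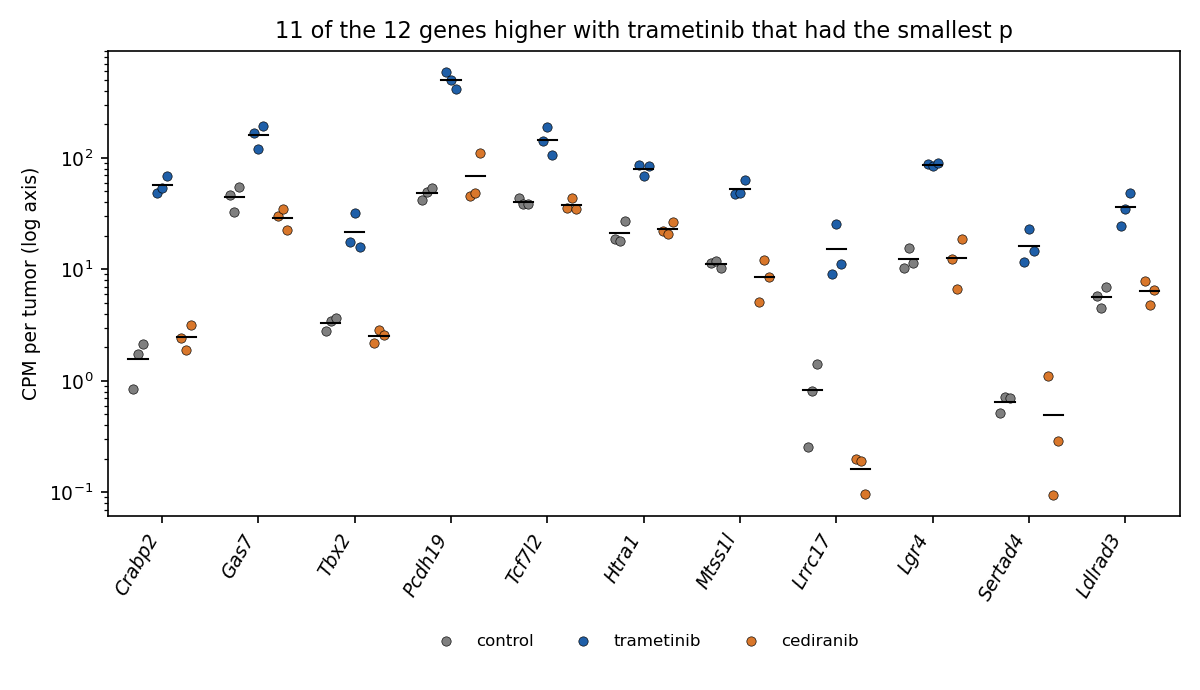
CPM in each tumor (log y axis) of 11 of the 12 genes higher with trametinib that had the smallest p, with control, trametinib and cediranib tumors as points and group means as bars. All trametinib points lie above all cediranib points, and for Crabp2 the trametinib tumors hold 48.4 to 68.1 CPM against 1.89 to 3.16 CPM.

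WNT signaling genes were called in the higher direction only. WNT ligands bind Frizzled receptors, LGR4 amplifies the signal in response to R-spondins, and TCF7L2 is a transcription factor of the pathway in the nucleus. Of 37 genes 27 were tested, 6 were called higher (Wnt10a, Wnt10b, Fzd1, Fzd2, Lgr4 and Dkk2, the last a secreted modulator that can inhibit the pathway) and 0 lower, and DESeq2 and the likelihood ratio test called 9 each. At an unadjusted p under 0.05, 10 were higher and 2 lower, and the median was 0.69. Wnt10b, a ligand, had 14.1, 50.7 and 18.8 CPM with trametinib and 1.2, 1.70 and 1.63 CPM with cediranib (4.19 ± 0.69, FDR 0.00354), and Wnt10a had 3.06 ± 0.79 (FDR 0.0345). Lgr4 (2:109917647-110014257) had 87.4, 84.0 and 88.9 CPM against 12.4, 6.62 and 18.6 CPM (2.79 ± 0.31, FDR 0.000423). Its trametinib values were nearly equal, at 86.8 ± 2.50 CPM. Fzd2 had 79.1, 160 and 67.6 CPM against 15.7, 27.4 and 22.9 CPM (2.21 ± 0.31, FDR 0.0014) and Fzd1 had 1.53 ± 0.32 (FDR 0.0135). Tcf7l2 (19:55741810-55933654), which is not on this list and was named for its p, had 141, 189 and 105 CPM against 35.6, 43.3 and 34.6 CPM (1.94 ± 0.21, FDR 0.000376). The target gene Axin2 was higher in estimate without a call (1.51 ± 0.47, FDR 0.0675), as was Notum (3.30 ± 0.96, FDR 0.055). Fzd1 lost its call without trametinib tumor 2 or cediranib tumor 1 or 3. In both skin checks Lgr4 alone of the 6 kept its call. Over all 16 alternatives the log2 fold change of Wnt10b ran from 3.44 to 4.54, of Fzd2 from 1.74 to 2.44 and of Fzd1 from 1.14 to 1.76.

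Of 28 tested genes of BMP and TGF-beta signaling 4 were higher and 1 lower, against 1.52% and 1.97% of all genes, and 0 of the 5 kept their calls in either skin check. Tgfb3, a TGF-beta ligand, had 154, 367 and 148 CPM with trametinib and 42.1, 86.2 and 54.6 CPM with cediranib (1.87 ± 0.42, FDR 0.0197). Id3, a target of BMP signals, had 27.7, 33.8 and 15.2 CPM against 4.80, 7.76 and 5.36 CPM (2.09 ± 0.41, FDR 0.00954), and Grem1, a secreted BMP antagonist, had 1.64 ± 0.42 (FDR 0.0335). The lower gene was the ligand Bmp7, with 0.635, 1.16 and 3.85 CPM against 22.7, 44.0 and 57.4 CPM (-4.41 ± 0.93, FDR 0.0135), and its call was lost without trametinib tumor 1 or 2. In each of these 4 genes the groups did not overlap. Grem1 lost its call without trametinib tumor 1 or 2 or cediranib tumor 1 or 3, Tgfb3 without trametinib tumor 2 or cediranib tumor 1 or 3, and Id3 without cediranib tumor 1.

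Matrix genes had mostly higher estimates with trametinib, and a minority were called. Of 20 tested collagens 15 had estimates above 0, 4 were called higher and 0 lower, and the median was 1.57. Of 26 matrix glycoproteins and proteoglycans 21 had estimates above 0, 7 were called higher and 0 lower, and the median was 1.40. At an unadjusted p under 0.05 the collagens had 9 higher and 3 lower members and the glycoproteins 16 higher and 1 lower, and DESeq2 called 6 and 9. Col6a1 and Col6a2, chains of the same beaded-filament collagen, had 114, 105 and 115 CPM against 30.1, 48.1 and 26.7 CPM (1.67 ± 0.31, FDR 0.00671) and 173, 208 and 179 CPM against 45.8, 74.5 and 46.0 CPM (1.75 ± 0.38, FDR 0.0164). Col3a1, a fibrillar collagen of soft tissue, had 1296, 1549 and 1161 CPM against 195, 450 and 97.2 CPM (2.43 ± 0.66, FDR 0.0403). Within the cediranib group tumor 2 was the highest for each of these collagens. Ogn, a small leucine-rich proteoglycan, had 9.62, 12.6 and 4.52 CPM against 0.599, 0.662 and 0.766 CPM (3.69 ± 0.47, FDR 0.000807). Its relatives Lum, Prelp and Aspn had 3.82, 2.98 and 2.93 on the log2 scale (FDR 0.0183, 0.0194 and 0.0133). The calls of Col6a2, Aspn, Lum and Prelp were lost without cediranib tumor 1 or 3, those of Lum and Prelp also without trametinib tumor 3, and that of Col3a1 in 5 of the 6 fits without 1 tumor. Col18a1 and Col4a1, of vessel basement membrane, had estimates in the other direction (-1.09 and -0.90, FDR 0.0163 and 0.124).

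The collagens summed to 18471, 39566 and 9172 CPM with trametinib and to 4456, 8286 and 2416 CPM with cediranib. The control tumors, at 3089, 8876 and 23600 CPM, spanned both groups. Against control the collagen median was 0.15 with trametinib and -0.87 with cediranib, and 0 collagens were called for either drug.

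Matrix proteases moved both ways, with 3 called higher and 3 lower of 24 tested. Mmp2, a gelatinase of stromal cells, had 355, 454 and 320 CPM with trametinib and 62.3, 95.2 and 44.9 CPM with cediranib (2.48 ± 0.58, FDR 0.0231). Timp3, a protease inhibitor bound to matrix, had 117, 105 and 139 CPM against 36.2, 24.2 and 36.5 CPM (1.90 ± 0.36, FDR 0.00784). Mmp9, the other gelatinase, was lower, with 2.72, 3.61 and 1.84 CPM against 14.9, 68.7 and 9.19 CPM (-3.52 ± 0.73, FDR 0.0128). The call of Mmp9 was lost without trametinib tumor 3 (FDR 0.0588), and that of Mmp2 without trametinib tumor 2 or cediranib tumor 1 or 3. Of the 6 genes Mmp9 and Ctsk kept their calls in both skin checks, but Ctsk was called in only 9 of the 16 alternatives. Timp3 kept its call with the epidermal score alone, and Mmp2, Loxl1 and Plaur kept theirs in neither.

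Fibroblast markers overlap with the matrix lists, since Col1a1, Col1a2 and Col3a1 stand on both the fibroblast and the collagen list and Lum on the glycoprotein list too. The fibroblast sum was close to the collagen sum in each tumor, so the lists are not separate measurements. The summed level of 13 tested fibroblast genes was 8957 to 39361 CPM with trametinib and 2142 to 7485 CPM with cediranib, without overlap (exact permutation p = 0.1, the smallest possible). Of these 4 were called higher and 0 lower, with a median of 2.02, and the fibroblast receptor Pdgfra passed the FDR at 1.46 ± 0.27 (FDR 0.00702). Without cediranib tumors 1 and 3 edgeR called 0 of the collagens, the matrix glycoproteins and the fibroblast genes, and after adding the epidermal score it also called 0. Leaving out single tumors gave 2 to 7, 1 to 7 and 0 to 7 calls in these lists. The part of stromal content in these differences was not tested.

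Skin transcripts gave the largest differences. Of 30 tested keratins 11 were called lower with trametinib and 0 higher, and of 23 tested epidermal genes 13 were lower and 0 higher, where DESeq2 called 21 and 19. The medians were -7.90 and -5.07, or -7.19 and -4.02 with genes at 0 counts in the trametinib group set to their bounds. Krt14, the keratin of basal epidermal cells (11:100203162-100207548), had 1.27, 2.09 and 0.335 CPM with trametinib and 1694, 2.36 and 821 CPM with cediranib. Cediranib tumors 1 and 3 were high, and cediranib tumor 2 was level with trametinib tumor 2 (-9.47 ± 2.49, FDR 0.0361). Of the 6 fits without 1 tumor, Krt14, Krt6b and Dsp were called in that without cediranib tumor 2 alone. Its partner Krt5 had 4.63, 1.63 and 0.167 CPM against 942, 2.36 and 702 CPM, with overlap, and was not called (-8.0 ± 2.35, FDR 0.056). Krt6b, a keratin of hair follicles and wounds, had 2 against 11282 counts with 0.189 CPM in cediranib tumor 2, a ratio of 5736 with a counting interval of 1587 to 47366. Dsp, the desmosome anchor desmoplakin, had 1 against 1839 counts, a ratio of 1870 with an interval of 335 to 73894. Pkp1 and Krt77 had 0 counts with trametinib and were at least 321-fold and at least 284-fold lower, but cediranib tumor 2 also had 0 counts of both, so these bounds rest on cediranib tumors 1 and 3. Intervals and bounds cover counting error only, because reads were not tagged by molecule.

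In the vehicle controls the keratins summed to 848, 114 and 185 CPM, so the control tumors lay between the trametinib tumors and the high cediranib tumors. Keratin calls rested on cediranib tumors 1 and 3, since edgeR called 0 keratins and 1 epidermal gene without both. Leaving out single tumors gave 0 to 23 and 2 to 21 calls. The gene that kept its call was Ivl, which encodes involucrin of the cornified envelope (3:92570902-92573735). Ivl had 0 counts in each trametinib tumor and 11.6, 33.0 and 13.6 CPM with cediranib, with cediranib tumor 2 the highest of the 3. It was at least 206-fold lower (FDR 0.000939), and the control mean was 17.9 CPM. Ivl did not follow the keratins across these tumors. The controls had 7.15, 33.9 and 12.6 CPM of Ivl and 266, 1.72 and 1.01 CPM of Krt14, and cediranib tumor 2 had 2.36 CPM of Krt14. How much skin each sample held was not recorded in the labels, and its part in these differences was not tested.

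**Figure D4:**
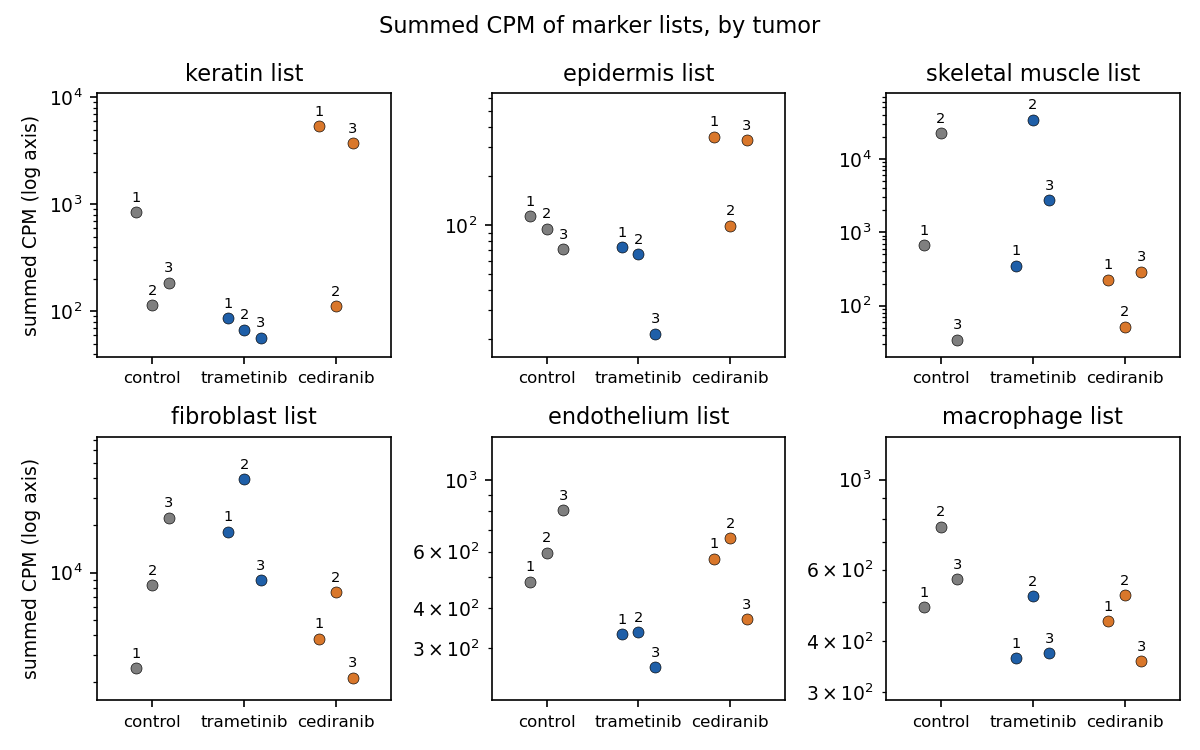
Summed CPM (log y axes) of 6 marker lists in each tumor, with the tumor number beside each point. Cediranib tumors 1 and 3 are high in keratin (5401 and 3704 CPM), trametinib tumor 2 is high in skeletal muscle (34292 CPM), fibroblast sums are higher and endothelial sums lower with trametinib, and macrophage sums overlap.

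Skeletal muscle transcripts were higher with trametinib in sum, at 351, 34292 and 2757 CPM against 226, 51.5 and 292 CPM. The control tumors had 669, 22340 and 34.3 CPM, so that control tumor 2 was high as well, and against control the median was 0.74 with trametinib and -4.56 with cediranib. Of 21 tested muscle genes 1 was called, although 20 had an unadjusted p under 0.05 in the higher direction, DESeq2 called 17 and the likelihood ratio test 18, and the median was 5.34. Myh4, a fast myosin heavy chain, had 132, 12513 and 694 CPM with trametinib and 7.19, 2.36 and 36.7 CPM with cediranib (8.17 ± 2.90, FDR 0.103). The called gene was Des, desmin of the muscle cytoskeleton, with 25, 858 and 150 CPM against 11.2, 8.04 and 22.2 CPM (4.64 ± 1.32, FDR 0.05, at the limit), and its call was lost in 5 of the 6 fits that left out 1 tumor, the exception being the one without trametinib tumor 1. H19, an imprinted noncoding RNA that muscle precursors express, had 7.17, 217 and 26.5 CPM against 0.3, 1.8 and 1.53 CPM (6.08 ± 1.47, FDR 0.0256), and its call was lost without trametinib tumor 2 or any single cediranib tumor. Capn6, a calpain of embryonic muscle, had 4.81, 29.1 and 5.61 CPM against 0.3, 0.0946 and 0 CPM (6.53 ± 1.19, FDR 0.00651). Des, H19 and Capn6 lost their calls in both skin checks. Trametinib tumor 2 was the highest for each of these genes, and the part of muscle content in their differences was not tested.

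Macrophage and interferon-stimulated genes held no calls. Of 19 tested macrophage genes edgeR's quasi-likelihood test, DESeq2 and the likelihood ratio test called 0, and 0 had an unadjusted p under 0.05. The macrophage sum was 363, 516 and 374 CPM with trametinib and 448, 519 and 357 CPM with cediranib (exact permutation p = 0.9). Of 16 interferon-stimulated genes 0 were called by any of these tools and 0 had an unadjusted p under 0.05, with a median of 0.31. Of 14 lymphocyte genes, 0 passed the low-count filter in these nude mouse tumors, and 3 of 12 neutrophil genes did. These 3 summed to 0.999, 0.466 and 0.670 CPM with trametinib and 2.00, 2.18 and 1.53 CPM with cediranib, low in both groups but without overlap (exact permutation p = 0.1, the smallest possible). Red cell genes were high in cediranib tumor 2 alone, with a sum of 579 CPM against 62.6 to 97.4 CPM in the other 5 tumors. The metabolic lists also held no calls by any of the 3 tools. Of 24 glycolysis and hypoxia genes 2 had an unadjusted p under 0.05, both lower, including Hk2, the inducible hexokinase (-1.26 ± 0.22, FDR 0.00528), and of 18 cholesterol synthesis genes 0 did.

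Over all 16 alternatives some genes that lost calls in the skin checks kept their size. On the log2 scale Mn1 ran from 5.00 to 5.86, Nos3 from -3.02 to -2.37 and Plaur from -2.60 to -2.05. Others moved, with Col3a1 from 0.94 to 3.19 and Krt14 from -10.05 to 1.87. The calls also differed in how far they held without cediranib tumors 1 and 3. Without both, with 1 cediranib tumor left that was assumed to vary like the other groups, 113 genes were called and 99 of the 450 calls remained, 29 of them higher and 70 lower. With the epidermal score in the fit, 129 genes were called and 96 of the 450 remained, 31 higher and 65 lower. The ERK output list held 11 calls under each, against 15. Of the 450 genes 73 were called under all 16 alternatives, 53 lower and 20 higher. They include the 12 genes with the smallest p in each direction, of which 11 of the higher genes are described above. Among the 73 were the lower genes Egr1, Dusp4, Dusp5, Dusp6, Etv4, Etv5, Ccnd1, Itga6, Hmga2 and Bcl2. The higher genes among them included Crabp2, Pcdh19, Tcf7l2 and Lgr4. Among the fits that left out 1 tumor, the calls were fewest without cediranib tumor 1, at 254, followed by 285 without trametinib tumor 2. They were most numerous without cediranib tumor 2, at 562.

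**Figure D5:**
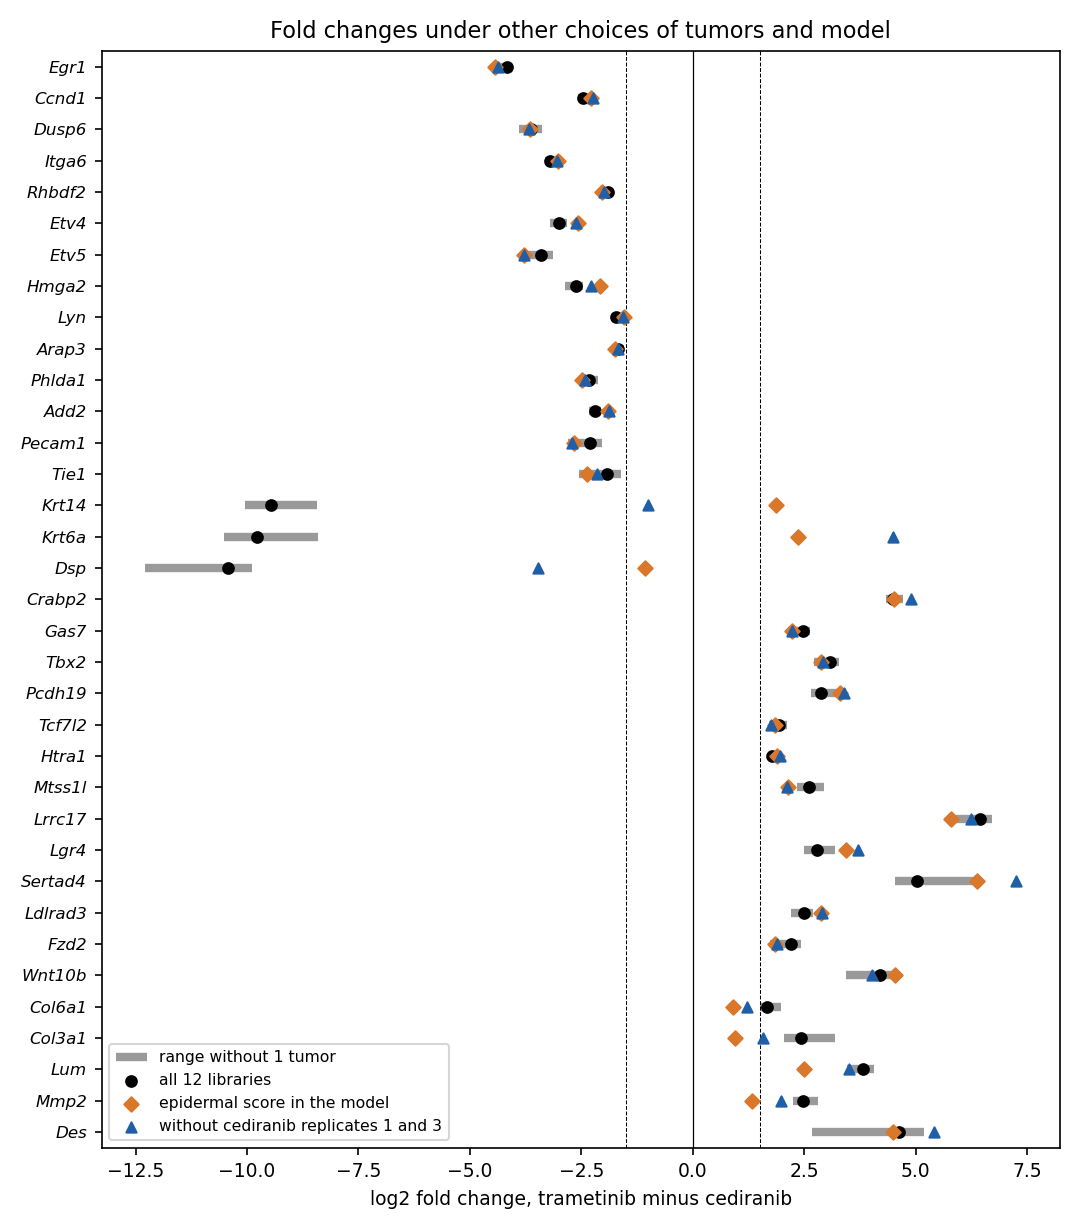
Log2 fold changes (x axis, trametinib minus cediranib) of 35 genes with all 12 libraries (black), over the 6 fits that leave out 1 tumor (grey range), with the epidermal score in the model (orange) and without cediranib tumors 1 and 3 (blue triangles), with dashed lines at -1.5 and 1.5. ERK output genes and the leading higher genes keep their place, while the skin genes Krt14 and Krt6a move from -9.47 and -9.77 to 1.87 and 2.35 with the score.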

How the data were processed

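RNA of whole tumors was captured with exome probes (TruSeq RNA Exome) and sequenced. A gene's count thus reflects both its probes and its transcripts. The authors chose this capture because RNA in the tumors was degraded. Reads were demultiplexed with bcl2fastq 1.8.4, and the authors used STAR 2.7.1a (2-pass) for alignment to GRCm38 and featureCounts 1.6.0 for the counts. The values the authors deposited are raw counts per gene, without normalization. The sources used here do not give the strand setting or how multi-mapping reads were treated. Every column belonged to 1 tumor, with 0 columns left over.

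Of 54232 genes, 29102 had a count and 12897, of which 11124 are protein coding, were kept by filterByExpr in edgeR with a minimum count of 10 and a minimum total of 15. Counts were scaled with TMM and fitted with edgeR 4.0.16 (quasi-likelihood, R 4.3.3). The fit held all 12 libraries, and the contrast was trametinib minus cediranib. Adjusted p-values (FDR) are Benjamini-Hochberg values over all genes tested. The size threshold is the one the study used. The standard error is the size of the log2 fold change over the root of its F statistic. Folds against 0 counts were bounded with 3 counts over the group. Alternatives were DESeq2 1.42.0, other scalings and filters, fewer libraries, a replicate block and an epidermal covariate. Scripts were tested on simulated data.

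Named genes comprise the 12 genes with the smallest p in each direction without overlap of the groups, the 6 with the largest change in each direction at a mean of at least 10 CPM, up to 4 called members of each list, and a fixed set of pathway genes, of which 2 genes in all are not reported here. Members, lists and rules were chosen with earlier results of these data known. Gene lists are described by counts and medians, without a test of the list.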

Additional observations from a re-analysis of the deposited data

How the results depend on the processing

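The alternatives gave between 113 and 973 called genes, against 450. Without a low-count filter 973 were called (454 higher, 519 lower) and with the likelihood ratio test 721 (302 higher, 419 lower), while DESeq2 called 633. With the epidermal score 129 were called (50 higher, 79 lower), and 24 of the 450 calls changed sign. Without both cediranib tumors high in keratin 113 were called (36 higher, 77 lower), and 17 changed sign. Leaving out 1 tumor gave 254 to 562 calls, of which 103 to 228 were higher and 146 to 334 lower. It kept 183 of the 450 in all 6 fits. With only the 6 single agent libraries the count was 361, with 51% higher against 43.6%. Scaling by DESeq2 size factors or library totals gave 444 and 450 calls, and a minimum count of 30 gave 388. Of the genes that were called among those described, 40 of 102 remained with the epidermal score and 41 of 100 without both tumors.

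With a replicate block 413 genes were called, and 384 of the 450 remained. Samples of the same number shared no deviation (r = -0.01, 0.03 and -0.00 across genes, which are not independent replicates), so the tumors share only a number. In 1 of the 3 trametinib tumors the deviations correlated most with the cediranib tumor of its own number.

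Among the genes described, these estimates turned sign. With the epidermal score, Krt6b (0.074), Krt17 (0.98), Krt6a (2.35), Krt14 (1.87), Krt5 (2.87), Sfn (0.17), Mapk3 (-0.15) and Pdgfrb (-0.76) turned, at FDRs from 0.4144 to 0.9911. Without both cediranib tumors, Krt79 (1.87), Krt6a (4.49), Krt15 (0.0090), Mki67 (-0.0034), Mapk3 (-0.10) and Pdgfrb (-0.51) turned, at FDRs from 0.6668 to 1. Mki67 also turned with library totals (-0.0066), the block (-0.0067), and without trametinib tumor 1 or 2 or cediranib tumor 3. Pdgfrb turned without trametinib tumor 2, Map2k1 without trametinib tumor 3 or cediranib tumor 2, and Vegfa without cediranib tumor 2. Over the fits without 1 tumor the ranges were -0.14 to 0.24 for Mki67, -0.022 to 1.05 for Pdgfrb, -0.26 to 0.020 for Map2k1 and -0.50 to 0.052 for Vegfa. The cause was not tested.

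Depth limits genes under about 0.349 CPM, where a count of 0 and a low level cannot be told apart. Degraded RNA, probe capture, unrecorded time on drug and admixed skin, muscle and stroma limit all comparisons, and 3 tumors a group give an exact test no p under 0.1.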

Other observations

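Further gene families were examined after values had been seen, so their members were chosen with results known and their counts are descriptions. Of 20 genes of Notch signaling, through which neighboring endothelial cells set each other's fate, 18 were tested, 5 were called lower and 0 higher, with a median of -0.59. Background shares are 1.97% lower and 1.52% higher, and 8 members were lower and 2 higher at an unadjusted p under 0.05. The ligand Jag2 had 19.1, 25 and 23.4 CPM with trametinib and 78.8, 56.9 and 67.8 CPM with cediranib, without overlap (-1.59 ± 0.21, FDR 0.00113). The ligand Dll1 had 3.27, 4.19 and 3.18 CPM against 8.49, 17.3 and 11.5 CPM (-1.81 ± 0.33, FDR 0.00671). The feedback gene Nrarp (-2.35 ± 0.41, FDR 0.00521) and Mfng, a modifier of Notch sugars (-2.45 ± 0.48, FDR 0.00908), were lower at low levels. Rbpj, the DNA-binding partner of Notch, had 79.4, 64.5 and 70.2 CPM against 182, 154 and 185 CPM but missed the size threshold (-1.28 ± 0.16, FDR 0.000682). Notch2 and Notch3 had estimates in the other direction (0.79 and 1.17, FDR 0.0272 and 0.0765). The call of Dll1 was lost without cediranib tumor 2, and that of Jag2 without trametinib tumor 1 or cediranib tumor 1. In both skin checks Dll1 and Mfng kept their calls and Jag2 and Nrarp lost them, and Notch4 lost its call with the epidermal score.

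Of 5 tested ligands of EGF family receptors 2 were lower and 0 higher. Hbegf had 1.72, 1.28 and 0.921 CPM with trametinib and 7.29, 8.89 and 5.84 CPM with cediranib (-2.48 ± 0.35, FDR 0.00149). Tgfa had 2.45, 1.40 and 1.26 CPM against 9.89, 8.80 and 7.08 CPM (-2.32 ± 0.29, FDR 0.000751). The neuregulins Nrg1 and Nrg4 overlapped between groups (FDR 0.22 and 0.827). Hbegf and Tgfa kept their calls in both skin checks.

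Of 20 further endothelial genes 15 were tested and 10 were called lower, with 0 higher, where 0 members were higher at an unadjusted p under 0.05 and DESeq2 and the likelihood ratio test called 10 each. The median was -1.68. Nos3, the endothelial nitric oxide synthase, had 51.9, 54.2 and 15.3 CPM against 375, 227 and 218 CPM (-2.76 ± 0.42, FDR 0.00238). Selp, the adhesion molecule P-selectin, had 0.817, 0.233 and 0.167 CPM against 6.59, 7.57 and 5.26 CPM (-3.94 ± 0.49, FDR 0.000751). Calcrl, the receptor for adrenomedullin, had 2.45, 2.79 and 2.68 CPM against 19.5, 9.93 and 15.7 CPM (-2.51 ± 0.32, FDR 0.000876). In all 3 genes the groups were apart. F2rl3, a thrombin receptor, had 0 counts with trametinib and 28 with cediranib, at least 9.49-fold lower (FDR 0.016). Ramp2 and Cd34 had estimates near 0 (0.20 and -0.02, FDR 0.55 and 0.969). Of the 10 called genes Selp, Calcrl, Hhex and Cd93 kept their calls in both skin checks, and Nos3, F2rl3, Bcl6b, Podxl, Myct1 and Rasip1 lost theirs in both. The log2 fold change of Nos3 ran from -3.02 to -2.37 over all 16 alternatives. The call of Cd93 was lost without trametinib tumor 1 or 3 or cediranib tumor 1.

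Of 39 HOX genes 31 were tested, 4 were called higher (Hoxa3, Hoxa13, Hoxd9 and Hoxd10) and 0 lower, and 16 were higher and 0 lower at an unadjusted p under 0.05, against 12.4% and 12.3% of all genes. Hoxd10 had 101, 87.6 and 110 CPM with trametinib and 20.5, 32.6 and 45.4 CPM with cediranib (1.6 ± 0.23, FDR 0.00161). Hoxa3 had 13.9, 15.2 and 14.7 CPM against 5.10, 3.12 and 4.31 CPM (1.8 ± 0.27, FDR 0.00214). Hoxa3 kept its call in both skin checks, Hoxd10 lost it with the epidermal score, and Hoxa13 and Hoxd9 lost theirs in both.

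Of 6 tested small heat shock proteins, chaperones abundant in muscle, 3 were higher. Cryab had 121, 348 and 143 CPM against 9.99, 6.81 and 17.8 CPM (4.14 ± 0.64, FDR 0.00238). Hspb2 and Hspb7 had 1 and 2 counts with cediranib against 109 and 110 with trametinib, ratios of 107 (counting interval 18.8 to 4273) and 54.1 (14.6 to 452). Trametinib tumor 2, the highest in muscle genes, was also the highest for Cryab and Hspb2. Hspb7 was highest in trametinib tumor 3. All 3 genes lost their calls in both skin checks. The part of muscle content was not tested.

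Of the marker lists not described above, 1 of 11 pericyte and smooth muscle genes was called (Des), and edgeR's quasi-likelihood test called 0 of 6 adipocyte, 6 red cell, 3 neutrophil and 2 Schwann cell and melanocyte genes. DESeq2 and the likelihood ratio test called 1 adipocyte gene and 0 of the others, and 1 adipocyte and 1 red cell gene had an unadjusted p under 0.05.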
